A study of Mus musculus with 12 samples.

Results

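Heterogeneous nuclear ribonucleoprotein (hnRNP) and poly(C)-binding protein genes were followed through the total RNA and the ribosome-protected fragments (RPF) of activated CD4 T cells with and without the RNA cap methyltransferase RNMT. The 10 genes were *Pcbp1*, *Pcbp2*, *Hnrnpk*, *Hnrnpa1*, *Hnrnpa2b1*, *Hnrnpc*, *Hnrnpd*, *Hnrnpl*, *Hnrnpm* and *Hnrnpu*, taken by symbol from 49585 counted genes. All 10 were found, and all 10 passed the filter on low counts in each kind of library and in both kinds together. They were chosen by family name with the genotype differences in total RNA, RPF and translation already known from these same libraries, *Pcbp1* for its large difference in translation, so the differences of these genes between genotypes are given below as a description and not as support for a pattern.

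hnRNPs are abundant RNA-binding proteins that coat new transcripts in the nucleus, take part in splicing, and in many cases move to the cytoplasm, where they act on mRNA stability, localisation and translation. The poly(C)-binding proteins PCBP1 and PCBP2 and hnRNP K bind cytosine-rich RNA through KH domains, and PCBP1 also delivers iron to ferritin. The other hnRNPs studied here, apart from hnRNP U, bind RNA mainly through RNA recognition motifs. T cells use several of them to switch splicing after activation, the best-known case being the exons of *Ptprc*, which encodes CD45.

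The cells were naive CD4 T cells sorted by magnet from lymph nodes of female mice on a C57B6/J background and activated for 20 h on plates coated with antibodies to CD3 (5 ug/ml) and CD28 (1 ug/ml), with 0.1 mg/ml cycloheximide for 1 min before lysis. Controls were *Rnmt* fl/fl mice without Cre, and *Rnmt* cKO mice were *Rnmt* fl/fl with Cre from the CD4 promoter, which acts from the double-positive stage in the thymus, so that *Rnmt* is deleted in CD8 T cells of these mice as well. Total cytoplasmic RNA and RPF were each sequenced from 3 control and 3 *Rnmt* cKO cultures, giving 12 libraries. Gene counts ranged from 15079703 to 22629563 per total RNA library and from 4123271 to 10661356 per RPF library, and values are in CPM, the counts of a gene scaled to a common library total, with TMM factors within each kind of library.

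*Rnmt* was measured first, as a check of the labels. Its CPM in total RNA was 95.5, 94.1 and 94.3 in controls and 29.3, 32.4 and 30.4 in *Rnmt* cKO, and in RPF 104.1, 87.9 and 98.9 against 10.5, 10.4 and 9.60. All *Rnmt* cKO libraries lay below all controls without reaching 0. The counts cover the whole gene, and where the remaining reads lie was not tested. All 7 CD4 T cell markers were above 1 CPM in every library, and their summed CPM in total RNA was 3052 to 3313 in controls and 2370.1 to 2715 in *Rnmt* cKO. Markers of other cells were low but not even. The 6 B cell markers summed to 9.92, 6.25 and 35.6 CPM in total RNA of control replicates 1 to 3 and to 91.9, 110.5 and 20.2 CPM in that of *Rnmt* cKO. In RPF they summed to 12.8, 8.59 and 42.8 CPM in controls and 139.3, 151.3 and 23.9 CPM in *Rnmt* cKO. *Ms4a1* was the most abundant B cell marker in 5 of the 6 total RNA libraries, with up to 41.1 CPM, and no B cell marker was at 0 there. Replicate 3 thus held more B cell transcripts than the other controls and fewer than the other *Rnmt* cKO libraries. CD8 markers followed it, with 41.7 CPM in total RNA of control replicate 3 against 21.4 in each of the other controls, and 9.85 CPM in *Rnmt* cKO replicate 3 against 26.4 and 21.3. The 4 NK markers summed to 5.52 to 7.33 CPM in control and 22.9 to 39.0 CPM in *Rnmt* cKO total RNA, of which *Eomes*, which activated T cells can also express, was 20.2 to 35.7 CPM in *Rnmt* cKO, while *Ncr1* or *Klrb1c* was at 0 in each control library. Myeloid markers summed to at most 4.41 CPM and erythroid markers to at most 2.21 CPM in any library. In such bulk samples, fewer cells of a type and less RNA per cell cannot be told apart.

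The genes lie on 8 chromosomes of GRCm38, by the GENCODE annotation. *Pcbp1* (chr6:86524492-86526321, minus strand) has 1 exon, and the others have 8 to 16 exons in their main transcript. *Pcbp2* is at chr15:102470539-102500061 (plus), *Hnrnpk* at chr13:58391142-58403343 (minus), *Hnrnpa1* at chr15:103240432-103246692 (plus) and *Hnrnpa2b1* at chr6:51460932-51469894 (minus). *Hnrnpc* is at chr14:52073377-52104028 (minus), *Hnrnpd* at chr5:99955935-99978938 (minus), *Hnrnpl* at chr7:28808541-28822266 (plus), *Hnrnpm* at chr17:33646233-33686860 (minus) and *Hnrnpu* at chr1:178321108-178337797 (minus). The cap that RNMT methylates sits on the first transcribed base, so the 30 bases around the annotated start are shown for the 3 genes called in every comparison below, for *Hnrnpd*, and for *Pcbp2* and *Hnrnpk* as the other KH domain genes. They are RefSeq starts on GRCm38.p6, with 15 bases before the start, and capitals mark the first 5 transcribed bases. *Pcbp2* has another RefSeq start 93 bases from the first, which begins with T and is shown too.
Pcbp1 (chr6:86526175-86526204, minus strand): ttgaaagcgggcttcCCGCCccgcccagac
Pcbp2 (chr15:102470524-102470553, plus strand): ccgccccgtccccctCCCAGaccagcagag
Pcbp2, other start (chr15:102470617-102470646, plus strand): cgccctccgccgcccTCCACccgccccggg
Hnrnpk (chr13:58402103-58402132, minus strand): tcgttctctgtctagCAGTGaccgaccgtc
Hnrnpd (chr5:99978924-99978953, minus strand): ccgttcttccgtcggCCATTttaggtggtc
Hnrnpl (chr7:28810875-28810904, plus strand): caatgagaggcggggGGAGGcgggttctgc
Hnrnpu (chr1:178337801-178337830, minus strand): gggggcggggcgcctATATTacgtgcgcgg

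The table held 12 starts for the 10 genes, of which 4 began with C, 1 with T, 3 with A and 4 with G. Among 32851 starts of all genes, 16.3% began with C. None of these annotated member starts was a C followed by 4 bases that are each C or T, read on the transcribed strand, a sequence found at 2.51% of all starts. The starts of *Hnrnpl*, *Hnrnpm* and *Hnrnpk* lay 2349, 1402 and 1226 bases from the outermost start in GENCODE. Those of *Pcbp1*, *Hnrnpa1*, *Hnrnpu* and *Hnrnpc* lay 132, 35, 18 and 7 bases from it. The windows thus show an annotated start and not one measured in these cells. Such a sequence depends on the exact first base, so whether the starts used in these cells have it was not tested.

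Several of the genes have processed copies elsewhere in the genome, which limits counting by unique alignment. Of all 28-base windows in the coding sequence, 87.6% for *Hnrnpk* and 86.4% for *Hnrnpa1* were also found in another annotated gene, against 62.5% for *Hnrnpc*, 25.7% for *Hnrnpa2b1*, 18.0% for *Pcbp2*, 8.26% for *Hnrnpl*, 2.89% for *Hnrnpd* and 0.576% for *Pcbp1*. *Hnrnpm* and *Hnrnpu* had none. *Hnrnpa1* shared windows with 27 other genes, of which 25 are pseudogenes. The window below, coding bases 487 to 514 of *Hnrnpa1*, stands in 12 other genes, 11 of them pseudogenes, so a fragment of it has no unique place.
Hnrnpa1 coding window: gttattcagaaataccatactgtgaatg

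Reads with no unique place were counted for no gene, so a copy can receive few by construction. Of the copies named after *Hnrnpa1*, *Hnrnpa1l2-ps* (chromosome 13) had 5 reads over the 6 total RNA libraries and *Hnrnpa1l2-ps2* (chromosome 15) also 5, beside 1311 reads for *Hnrnpa1* itself. By their shared windows, the levels of *Hnrnpa1*, *Hnrnpk* and *Hnrnpc* are uncertain, and those of *Pcbp1*, *Hnrnpl*, *Hnrnpd*, *Hnrnpm* and *Hnrnpu* little affected by this limit.

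Levels between genes were compared per length, as CPM per kilobase (RPKM), over all exons in total RNA and over the coding exons in RPF. In control total RNA, *Hnrnpa2b1* stood highest at 169.0 ± 21.9 RPKM (SD, n = 3), then *Hnrnpl* at 129.1 ± 21.4, *Hnrnpk* at 87.6 ± 2.79 and *Hnrnpu* at 84.7 ± 13.97. *Hnrnpc* (38.4 ± 3.16 RPKM), *Pcbp1* (37.9 ± 8.92), *Pcbp2* (32.9 ± 2.11) and *Hnrnpm* (31.2 ± 6.90) followed, with *Hnrnpd* at 9.15 ± 3.78 and *Hnrnpa1* at 6.37 ± 1.26. Of the 9 pairs of neighbours in this order, 6 overlapped between libraries. In control RPF the order was *Hnrnpa2b1* (1642 ± 53.4 RPKM), *Hnrnpu* (1214 ± 56.9), *Pcbp1* (1009.7 ± 60.8), *Hnrnpl* (892 ± 58.3), *Pcbp2* (747 ± 40.03), *Hnrnpd* (735 ± 50.1), *Hnrnpm* (433 ± 26.6), *Hnrnpk* (392 ± 26.4), *Hnrnpc* (269 ± 11.8) and *Hnrnpa1* (4.67 ± 1.69). Here 3 of 9 neighbouring pairs overlapped, namely *Pcbp1* with *Hnrnpl*, *Pcbp2* with *Hnrnpd* and *Hnrnpm* with *Hnrnpk*. *Pcbp1*, *Hnrnpd*, *Hnrnpu*, *Pcbp2* and *Hnrnpm* stood higher in the RPF order than in that of total RNA. *Hnrnpl*, *Hnrnpk* and *Hnrnpc* stood lower, the latter pair with levels that their copies make uncertain.

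Translation efficiency (TE) was the log2 ratio of RPF to total RNA, set to 0 at the median gene of the controls. It had no term for length, so RPF, which lie on coding exons, were set against total RNA over all exons. The order between genes thus also depends on the coding share, such as 1065 of 6811 exon bases for *Hnrnpd* and 1758 of 2679 for *Hnrnpl*. Per length, *Hnrnpu* stood above *Hnrnpl* in RPF and below it in total RNA, while their TE were alike. Of the 10 genes, 9 lay above the median gene and 1 below it, all past an adjusted p of 0.05, where 73.5% of 10668 genes passed, 36.5% above and 37.0% below (edgeR's quasi-likelihood test). *Pcbp1* had the highest fitted TE of the 10 at 3.78 ± 0.27 (log2 ± SE, the 38th highest of all genes), and *Hnrnpd* came next at 3.47 ± 0.37 (the 45th). *Hnrnpm* (2.74 ± 0.17), *Pcbp2* (2.58 ± 0.185), *Hnrnpl* (2.00 ± 0.11), *Hnrnpu* (1.99 ± 0.13) and *Hnrnpa2b1* (1.90 ± 0.11) were each above 96.7% of genes or more. *Hnrnpc* (0.51 ± 0.10) and *Hnrnpk* (0.49 ± 0.07) lay nearer to the median, and *Hnrnpa1* lay below it at -1.40 ± 0.24. Copies limit these 3 genes more in the coding sequence, where RPF lie, than over the whole transcript. Of whole-transcript windows, 22.8% for *Hnrnpc*, 44.6% for *Hnrnpk* and 50.2% for *Hnrnpa1* were found in another gene. What this does to their TE was not tested. With both strands counted, the value of *Pcbp2*, which overlaps *Map3k12* on the other strand, was 3.33, above the highest value of *Hnrnpm* in any alternative (2.94), which turns their order. The median over the 10 genes was 1.99. In single control mice the ranges fell into groups, with *Pcbp1*, *Hnrnpd*, *Hnrnpm* and *Pcbp2* each overlapping the next, then *Hnrnpl*, *Hnrnpu* and *Hnrnpa2b1*, then *Hnrnpc* and *Hnrnpk*, and *Hnrnpa1* apart. The control level is the base of the genotype difference in TE, so it is not independent of it.

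**Figure D1:**
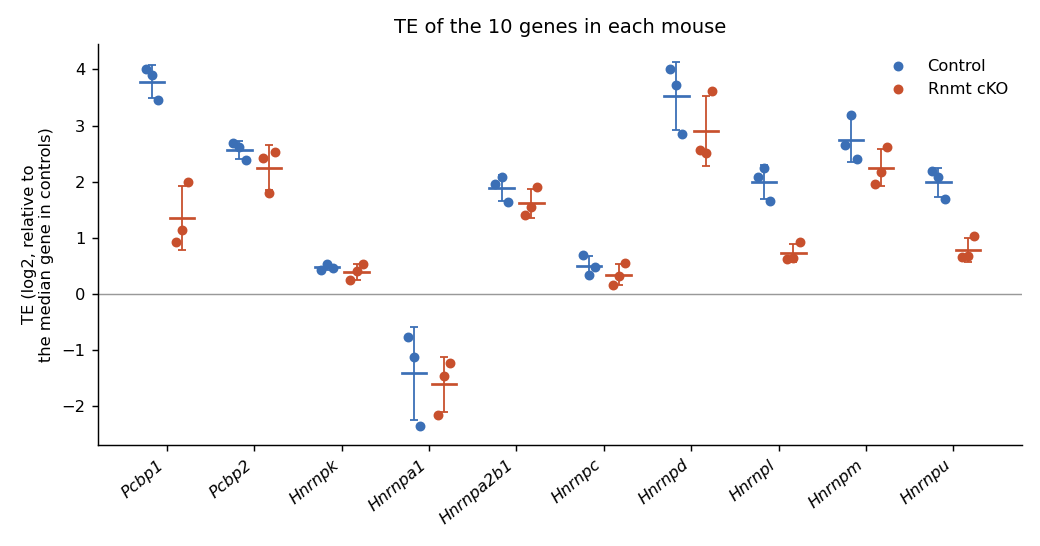
TE of each gene in each mouse (log2 of RPF over total RNA with no term for length, relative to the median gene in controls). Points are mice, horizontal lines are means and bars are SD (n = 3). *Pcbp1*, *Hnrnpl* and *Hnrnpu* had no overlap between genotypes, with *Pcbp1* at 3.46 to 4.003 in controls and 0.93 to 2.00 in *Rnmt* cKO.

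To learn how the loss of RNMT bears on these mRNAs, the genotypes were compared in total RNA, RPF and TE. All differences are relative to the library total and not amounts per cell. The paper reports less mRNA per cell and fewer translating ribosomes in activated *Rnmt* cKO cells. By the paper, rises in RNA are then overestimated and falls underestimated, and absolute differences in translation cannot be inferred. On this relative scale, *Pcbp1*, *Hnrnpl* and *Hnrnpu* had more total RNA, fewer RPF and lower TE in *Rnmt* cKO, each past an adjusted p of 0.05. *Hnrnpc* had fewer RPF and *Hnrnpd* more RPF, both by less than 1.2-fold, and the other 5 genes passed in no comparison. In total RNA, 3 genes increased and 0 decreased, where 25.7% and 27.9% of 11519 genes did (53.6% in all). With control replicate 3 left out 5 genes increased, where 5668 of 11380 genes were called in either direction. With *Rnmt* cKO replicate 3 left out 6 increased, where 6253 of 11281 genes were called in either direction. In RPF, 1 increased and 4 decreased, where 14.2% and 16.4% of 11428 genes did (30.6% in all), and the 1 increase was lost when control replicate 2 or 3 or *Rnmt* cKO replicate 1 was left out. For TE, 0 increased and 3 decreased, where 3.24% and 6.61% of 10668 genes did (9.85% in all), and the combination seen for *Pcbp1*, *Hnrnpl* and *Hnrnpu* held for 89 genes (0.834%). Over all genes, the 346 with higher TE fell to as few as 123 and the 705 with lower TE to as few as 435 with 1 replicate left out, which takes out its total RNA and its RPF library. Since these contrasts were known when the genes were chosen, nothing is read from the counts. The genotypes did not overlap for 3 members higher in total RNA and 0 lower (30.0% and 32.3% of all genes), for 1 higher and 4 lower in RPF (22.5% and 23.8%), and for 0 higher and 3 lower in TE (17.2% and 14.7%). The median log2 fold change of the 10 genes was 0.39 for total RNA, -0.15 for RPF and -0.43 for TE, beside 0.00, 0.01 and 0.04 over all genes tested.

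*Pcbp1* was the most changed of the 10. Its total RNA was 54.7, 66.3 and 87.0 CPM in controls and 303.6, 282.5 and 152.0 CPM in *Rnmt* cKO. Its RPF were 1007, 1133 and 1095 CPM in controls and 662.5, 709.3 and 694.4 CPM in *Rnmt* cKO. The genotypes did not overlap in either kind, and they moved in opposite directions, with *Rnmt* cKO replicate 3 lowest of its group in total RNA but not in RPF. Total RNA was 3.54-fold higher (log2 1.83 ± 0.31 SE, adjusted p = 0.0038, edgeR) and RPF 1.57-fold lower (log2 -0.65 ± 0.07, adjusted p = 3.4e-05). Its TE in single mice was 4.003, 3.90 and 3.46 in controls and 0.93, 1.13 and 2.00 in *Rnmt* cKO. This was a log2 change of -2.47 ± 0.35 (adjusted p = 0.0022, edgeR), the 7th lowest of all 10668 genes, which still left *Pcbp1* above the median gene of the controls in every *Rnmt* cKO mouse.

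*Pcbp2*, which encodes the closest relative of PCBP1 among the 10, passed in no comparison. Its changes in total RNA and TE had the same signs as those of *Pcbp1*, with wide SE. Its total RNA was 121.3, 121.3 and 135.3 CPM in controls and 139.8, 220.6 and 122.6 CPM in *Rnmt* cKO, where replicate 2 alone stood well above the controls. Its RPF were level, at 854 ± 45.8 CPM in controls and 850 ± 35.6 in *Rnmt* cKO (SD, n = 3). The log2 fold changes were 0.35 ± 0.22 SE for total RNA, -0.01 ± 0.07 for RPF and -0.36 ± 0.25 for TE, with adjusted p of 0.23, 0.94 and 0.42 (edgeR). *Hnrnpk*, the other KH domain gene, had the most even total RNA, at 356, 372 and 351 CPM in controls and 351, 365 and 348 CPM in *Rnmt* cKO, and its RPF were 573 ± 38.6 and 536 ± 51.2 CPM. Its log2 fold changes were -0.02 ± 0.06, -0.10 ± 0.08 and -0.075 ± 0.104.

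*Hnrnpl* and *Hnrnpu* changed in the directions of *Pcbp1* but by less. hnRNP L binds CA-rich RNA and represses the variable exons of *Ptprc*. Its total RNA was 316, 310.2 and 412 CPM in controls and 669, 655 and 542 CPM in *Rnmt* cKO, 1.80-fold higher (log2 0.85 ± 0.13 SE, adjusted p = 0.0013, edgeR). Its RPF were 1527, 1685 and 1493 CPM in controls and 1179, 1170.1 and 1175 CPM in *Rnmt* cKO, 1.33-fold lower (log2 -0.42 ± 0.07, adjusted p = 6.1e-04). Neither set of values overlapped between genotypes, and the 3 *Rnmt* cKO RPF values were within 1.01-fold of each other. TE went from 2.08, 2.25 and 1.66 to 0.62, 0.64 and 0.92 (log2 change -1.26 ± 0.15, adjusted p = 1.1e-04, edgeR).

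hnRNP U, also called SAF-A, binds nuclear RNA and DNA and has a part in chromatin organisation. *Hnrnpu* total RNA was 591, 579.7 and 769.9 CPM in controls and 1325, 1325 and 966 CPM in *Rnmt* cKO, 1.86-fold higher (log2 0.90 ± 0.16 SE, adjusted p = 0.0039, edgeR). RPF of *Hnrnpu* were the highest of the 10 genes in CPM, at 3072, 2828 and 2844 in controls and 2398, 2413 and 2252 in *Rnmt* cKO. The genotypes again did not overlap, and the fall in RPF was 1.24-fold (log2 -0.31 ± 0.06, adjusted p = 0.0034). TE was 2.18, 2.09 and 1.69 in control mice and 0.66, 0.67 and 1.03 in *Rnmt* cKO mice (log2 change -1.205 ± 0.181, adjusted p = 0.0012, edgeR).

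*Hnrnpd* encodes AUF1, which binds AU-rich elements and acts on mRNA decay. Its total RNA was 45.7, 49.2 and 92.0 CPM in controls and 145.8, 135.1 and 62.6 CPM in *Rnmt* cKO. Replicate 3 was the highest control and the lowest *Rnmt* cKO library, so the groups overlapped, and the log2 change of 0.87 ± 0.41 SE did not pass (adjusted p = 0.12, edgeR). Its RPF were 844, 746 and 758 CPM in controls and 990.3, 887 and 880.2 CPM in *Rnmt* cKO, 1.17-fold higher without overlap (log2 0.23 ± 0.07, adjusted p = 0.032). That call was lost in 8 of 15 alternatives, among them those without control replicate 2 or 3 or *Rnmt* cKO replicate 1 (log2 0.18 to 0.21). Its total RNA passed with all libraries in edgeR's exact test (log2 0.88, adjusted p = 0.029), and in the quasi-likelihood test without control replicate 3 (1.26) or *Rnmt* cKO replicate 3 (1.18). *Hnrnpc*, whose protein binds uridine tracts in introns, had total RNA of 156 ± 12.9 and 151 ± 22.8 CPM (SD, n = 3). RPF of *Hnrnpc* were 264.85, 244 and 247 CPM in controls and 211, 236 and 208 CPM in *Rnmt* cKO, 1.15-fold lower (log2 -0.21 ± 0.07, adjusted p = 0.040, edgeR), and this call too was lost in 8 of 15 alternatives, among them those without control replicate 1 or 3 or *Rnmt* cKO replicate 1 or 3 (log2 -0.22 to -0.17).

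The remaining genes did not pass between genotypes, though total RNA of *Hnrnpm* did without control replicate 3 (log2 0.59) or *Rnmt* cKO replicate 3 (0.58), and that of *Hnrnpa2b1* without the latter (0.37). With all libraries kept, total RNA of *Hnrnpm* passed in DESeq2 (0.43, adjusted p = 0.020) and that of *Hnrnpa2b1* with no filter on low counts (0.24, adjusted p = 0.011, edgeR). *Hnrnpa2b1*, a splicing and mRNA transport factor, had total RNA of 411 ± 53.2 and 490.1 ± 74.5 CPM and RPF of 1739 ± 56.6 and 1710.1 ± 53.9 CPM in controls and *Rnmt* cKO (SD, n = 3), with log2 changes of 0.25 ± 0.13 SE in total RNA and -0.02 ± 0.06 in RPF. *Hnrnpm*, a splicing factor that binds GU-rich RNA, had total RNA of 125 ± 27.7 and 168 ± 32.2 CPM and RPF of 951 ± 58.5 and 904 ± 41.0 CPM. *Hnrnpa1*, another splicing and export factor, was counted at 12.2 ± 2.41 and 11.2 ± 1.83 CPM in total RNA and at 5.22 ± 1.89 and 3.91 ± 0.66 CPM in RPF. Between 17 and 70 reads of it were counted per RPF library, and its RPF change of -0.42 ± 0.32 SE on the log2 scale did not pass. TE changes of *Hnrnpm* (-0.49 ± 0.23), *Hnrnpa1* (-0.30 ± 0.36), *Hnrnpa2b1* (-0.28 ± 0.15), *Hnrnpc* (-0.16 ± 0.14) and *Hnrnpd* (-0.64 ± 0.48) were all below 0 without passing.

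**Figure D2:**
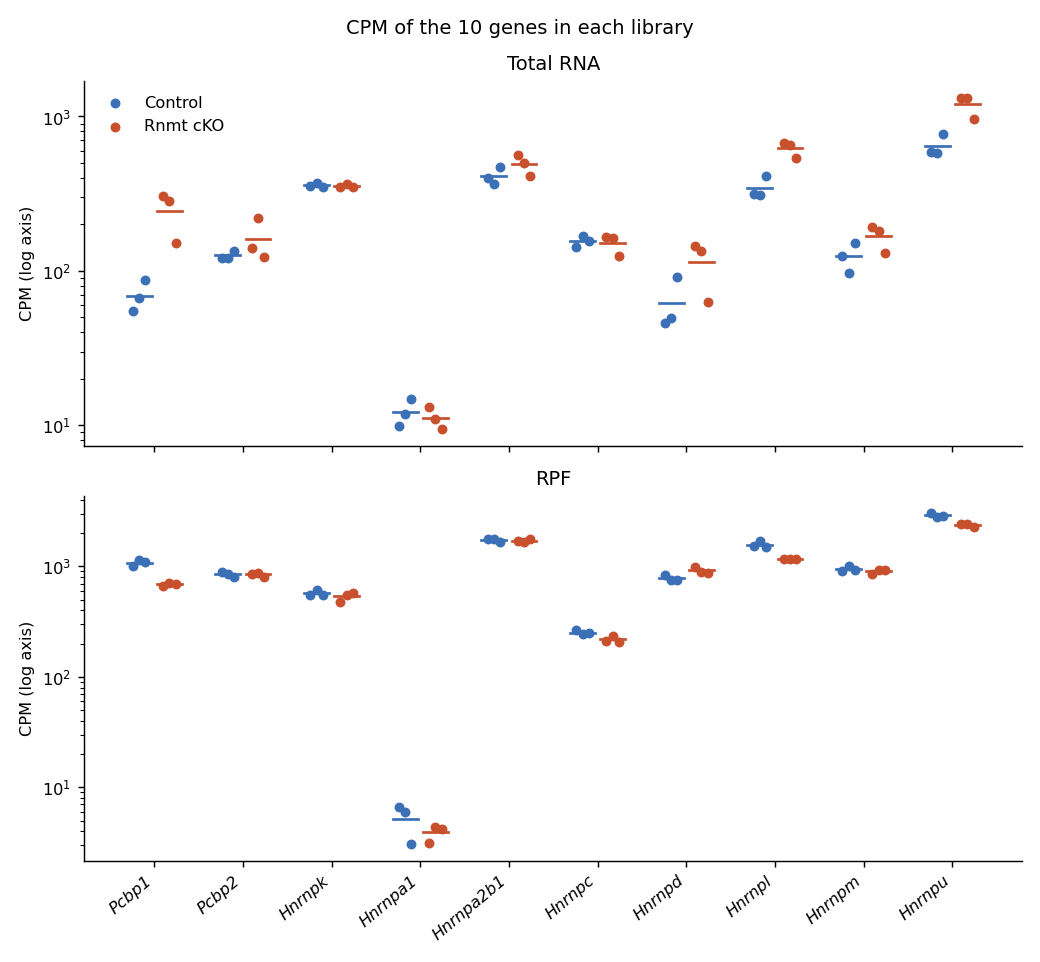
CPM of each gene in each library, in total RNA (top) and RPF (bottom), on log axes that differ in range. Points are libraries, in the order of replicates 1 to 3, and lines are means (n = 3). *Pcbp1* total RNA lay at 54.7 to 87.0 CPM in controls and 152.0 to 303.6 CPM in *Rnmt* cKO, while its RPF lay at 1007 to 1133 and 662.5 to 709.3 CPM.

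**Figure D3:**
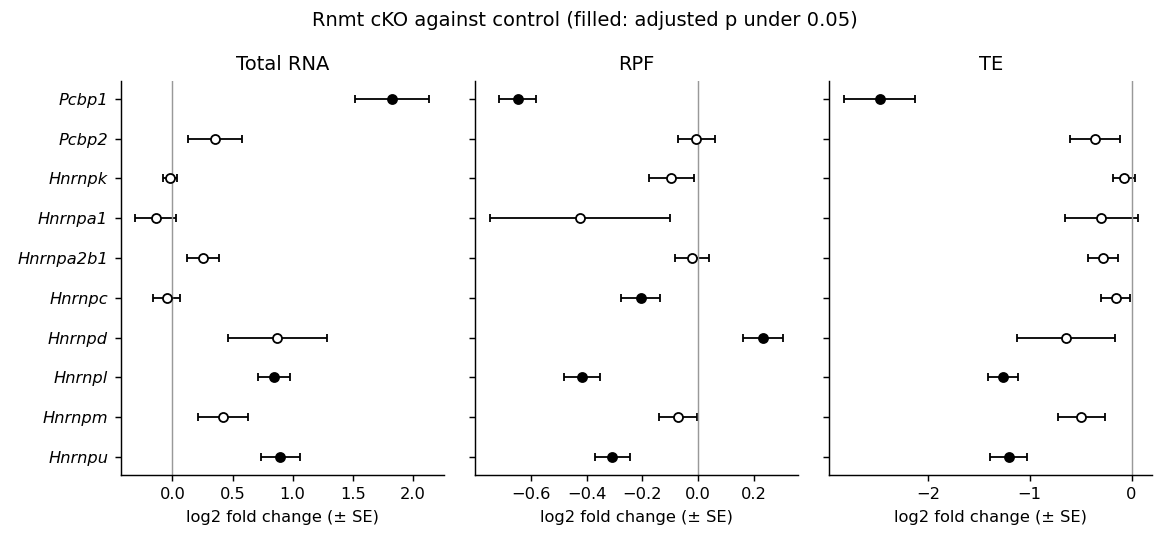
Log2 fold change of *Rnmt* cKO over control with SE for total RNA, RPF and TE, on axes that differ in range. Filled points passed an adjusted p of 0.05, which were 3 genes for total RNA, 5 for RPF and 3 for TE.

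The spread between libraries differed by kind. Within a group, the median SD of the log2 CPM of the 10 genes was 0.23 in control and 0.25 in *Rnmt* cKO total RNA, against 0.10 and 0.12 for all genes tested and 0.07 and 0.09 for genes with a log2 CPM of 5 or more. In RPF it was 0.09 and 0.06 for the 10 genes, against 0.14 and 0.14 for all and 0.09 and 0.09 for the more abundant genes. In total RNA, replicate 3 was the highest control library for 8 of the 10 genes, all but *Hnrnpk* and *Hnrnpc*, and the lowest *Rnmt* cKO library for all 10, where 36.8% and 37.2% of all genes had their highest and lowest value there. In RPF, control replicate 3 was highest for 0 of the 10 genes and *Rnmt* cKO replicate 3 lowest for 4, where 31.3% and 33.0% of all genes were. The replicate 3 libraries are those in which B cell and CD8 markers also stood apart, in RPF as well as in total RNA. The part of those cells in the total RNA values was not tested. Some total RNA reads lay on no exon of a gene on the counted strand, a share that includes any reads in introns. In replicate order it was 5.341, 5.63 and 5.997% in controls and 8.207, 8.138 and 7.239% in *Rnmt* cKO. Total RNA reads with no unique place were 30.06, 29.35 and 28.69% against 25.07, 24.27 and 27.32%. In both shares the genotypes did not overlap, and replicate 3 lay nearest to the other genotype. In RPF the genotypes overlapped in both shares. What these shares do to the total RNA values was not tested either. Replicate 3 of both genotypes was left out as an alternative chosen after seeing the values. It takes out the libraries nearest to the other genotype. Under it, 6 of the 10 genes increased in total RNA and 6 decreased in TE, with *Hnrnpd*, *Hnrnpm* and *Hnrnpa2b1* added to the 3 above. Of all genes, 6149 of 11070 were called in total RNA and 1221 of 10299 in TE under this alternative, in either direction. *Hnrnpd* then changed by 1.57 ± 0.07 SE in total RNA and by -1.33 ± 0.13 in TE on the log2 scale.

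**Figure D4:**
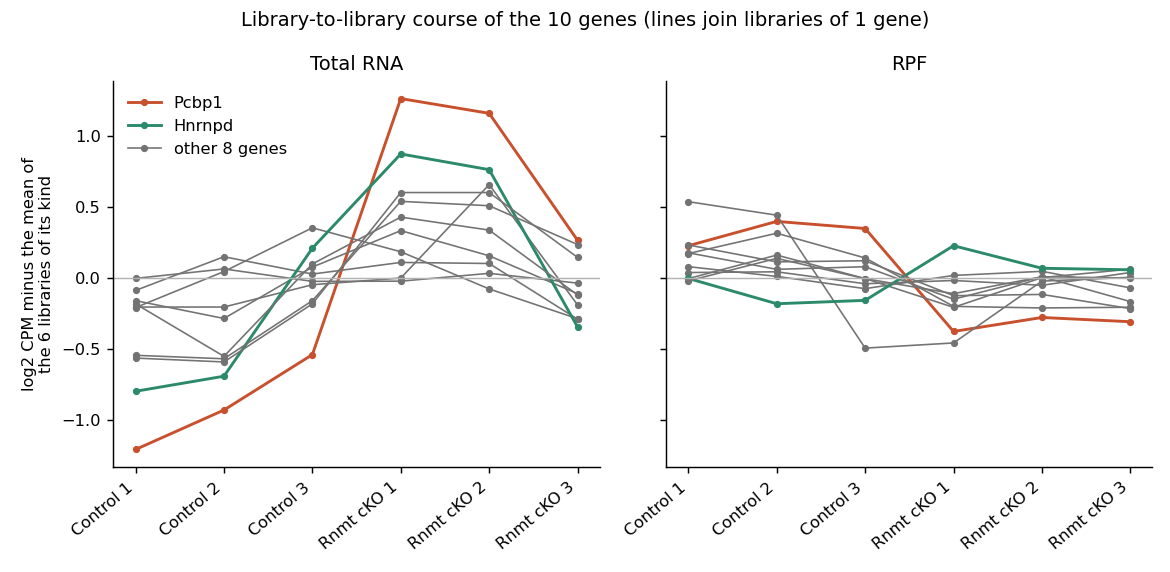
Log2 CPM of each gene minus its mean over the 6 libraries of the kind, in total RNA (left) and RPF (right). Lines join the libraries of 1 gene for reading, and replicates have no order. In total RNA, replicate 3 of *Rnmt* cKO was the lowest of its group for all 10 genes.

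Reads on the strand opposite to the genes were few. They made up at most 2.80% of the reads of a gene in any library, for *Hnrnpu*, which overlaps the protein-coding gene *Cox20* on the other strand. For *Pcbp1*, which overlaps the antisense gene *1600020E01Rik*, they made up at most 0.477%.

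Genes whose log2 CPM course was most like that of *Pcbp1* over the 12 libraries, each centred within its kind, were *Hnrnpu* (Pearson r = 0.98), *Pxn* (0.98), *Hnrnpl* (0.975), *Ipo4* (0.97) and *Eif3c* (0.97), out of 7293 genes whose mean log2 CPM reached 4. These values are a description, since the points share libraries, depth and genotype. *Pxn* encodes the focal adhesion protein paxillin, *Ipo4* an importin and *Eif3c* a subunit of initiation factor eIF3. *Ipo4* had log2 fold changes of 0.63 ± 0.12 SE for total RNA, -0.325 ± 0.062 for RPF and -0.95 ± 0.14 for TE. For *Pxn* they were 0.63 ± 0.08, -0.18 ± 0.08 and -0.81 ± 0.11, and for *Eif3c* 0.41 ± 0.07, -0.08 ± 0.06 and -0.49 ± 0.09. Among the members, *Hnrnpm* had an r of 0.80, *Hnrnpa2b1* 0.78, *Hnrnpd* 0.76, *Pcbp2* 0.62, *Hnrnpc* 0.27 and *Hnrnpk* 0.11, and *Hnrnpa1* was below the limit on abundance.

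A further 23 genes of the hnRNP and PCBP family were listed by name, and all 23 passed the filters. In total RNA, 5 increased and 7 decreased, or 52.2% of the list, near the 53.6% of all genes (25.7% increased and 27.9% decreased). Those that increased were *Ewsr1* (log2 0.505 ± 0.060 SE) and *Ptbp1* (0.49 ± 0.07), with *Hnrnpll* (0.43 ± 0.07), *Hnrnpab* (0.355 ± 0.074) and *Ptbp2* (0.205 ± 0.068). The largest decreases were *Rbmx* (-0.86 ± 0.08), *Pcbp4* (-0.57 ± 0.125), *Hnrnpdl* (-0.55 ± 0.06) and *Pcbp3* (-0.44 ± 0.13), followed by *Hnrnph1* (-0.26 ± 0.07) and *Raly* (-0.255 ± 0.066), with *Hnrnpr* at -0.24 ± 0.06. In RPF, 2 increased and 4 decreased, or 26.1% of the list beside 30.6% of all genes. There, *Hnrnpab* (0.34 ± 0.06) and *Hnrnpul1* (0.23 ± 0.07) increased, and *Rbmx* (-0.72 ± 0.09), *Hnrnpa3* (-0.58 ± 0.135), *Hnrnpdl* (-0.51 ± 0.06) and *Syncrip* (-0.34 ± 0.08) decreased. *Hnrnpab*, the most abundant of the list, and *Hnrnpdl* and *Rbmx* thus went the same way in both kinds. Leaving out 1 library ended the total RNA calls of *Ptbp2* (control replicate 1, 2 or 3 or *Rnmt* cKO replicate 2), *Pcbp3* (control replicate 2 or *Rnmt* cKO replicate 1 or 2) and *Raly* (*Rnmt* cKO replicate 1), at log2 values of 0.18 to 0.22, -0.44 to -0.38 and -0.21. It also ended the RPF call of *Hnrnpul1* (control replicate 2 or *Rnmt* cKO replicate 1 or 3, 0.19 to 0.24). With all libraries kept, the total RNA call of *Pcbp3* was lost in DESeq2 (adjusted p = 0.087) and with no filter on low counts (adjusted p = 0.064, edgeR). That of *Ptbp2* was lost with upper quartile scaling and with no filter (adjusted p of 0.097 and 0.094, edgeR), and the RPF call of *Hnrnpul1* with no filter and in the exact test (0.077 and 0.076). Without replicate 3 of both genotypes, the total RNA calls of *Hnrnpr* (-0.18), *Hnrnph1* (-0.16), *Ptbp2* (0.20) and *Pcbp3* (-0.45) and the RPF call of *Hnrnpul1* (0.22) were lost. Copies limit some of these genes too, with 97.8% of coding windows of *Hnrnpa3*, 64.6% of *Ewsr1*, 49.65% of *Hnrnpr*, 45.0% of *Syncrip* and 38.1% of *Ptbp1* found in another gene.

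For TE, 0 of the 23 family genes increased and 3 decreased, or 13.0% of the list beside 9.85% of all genes (3.24% increased and 6.61% decreased). Nothing particular to the family is read from these counts. Those that decreased were *Ptbp1* (-0.63 ± 0.10 SE), which encodes the pyrimidine tract-binding splicing repressor hnRNP I, *Ewsr1* (-0.42 ± 0.10), an RNA-binding protein gene, and *Hnrnpll* (-0.37 ± 0.10), a regulator of *Ptprc* splicing in T cells. The call of *Ptbp1* held in each alternative. That of *Ewsr1* was lost without control replicate 2 or 3 or *Rnmt* cKO replicate 1 (-0.40 to -0.35) and without replicate 3 of both genotypes (-0.38), and that of *Hnrnpll* without control replicate 1 or 2 or *Rnmt* cKO replicate 1 or 2 (-0.39 to -0.32). With all libraries kept, the call of *Hnrnpll* was also lost with upper quartile scaling (adjusted p = 0.055, edgeR), with no filter (0.081) and with the replicate block (0.096). *Ptbp1* had 311, 307 and 293 CPM in control total RNA and 439, 449.7 and 388 CPM in *Rnmt* cKO, with no overlap. The median log2 change of the list was 0.00 for total RNA, -0.08 for RPF and -0.02 for TE, beside 0.00, 0.01 and 0.04 over all genes. *Taf15*, which encodes an RNA-binding protein of the transcription machinery, had a large total RNA change that did not pass (log2 0.78 ± 0.33, adjusted p = 0.096, edgeR). Its total RNA was 15.5, 16.0 and 27.0 CPM in controls and 39.4, 40.2 and 21.0 CPM in *Rnmt* cKO, so that replicate 3 again lay toward the other genotype. Its RPF were within 203.6 to 230.2 CPM in all 6 libraries.

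**Figure D5:**
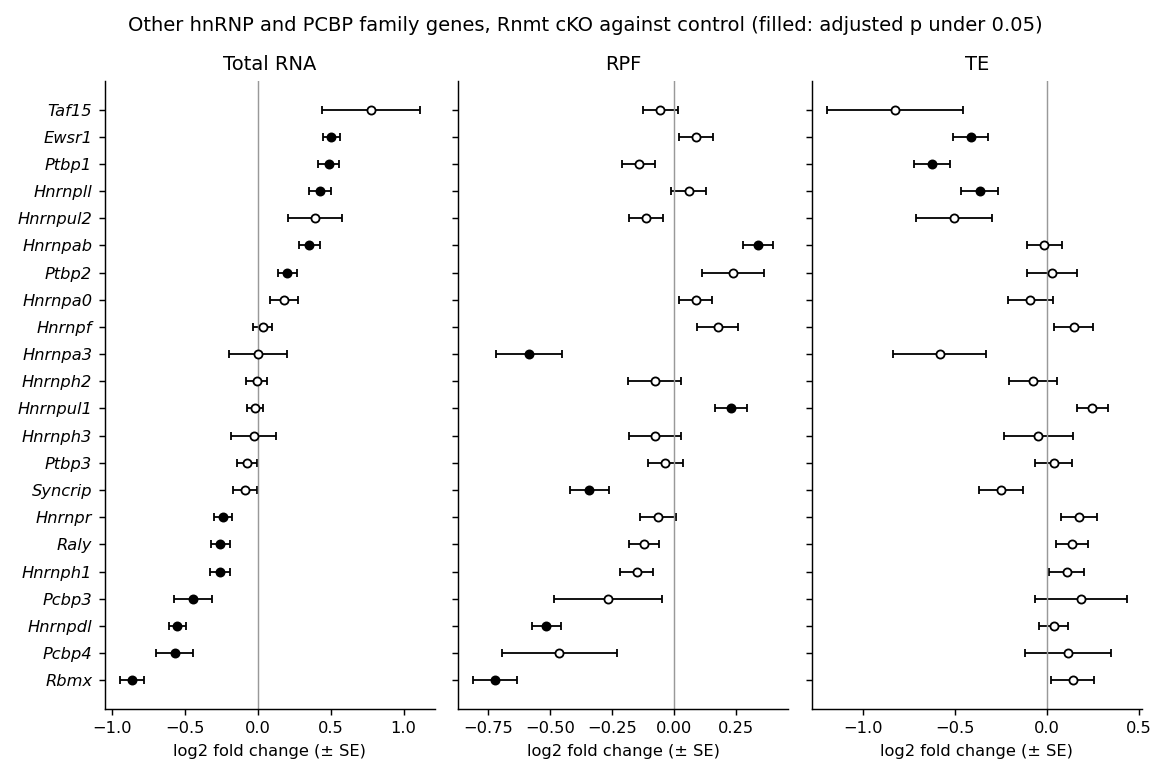
Log2 fold change of *Rnmt* cKO over control with SE for other family genes in total RNA, RPF and TE, on axes that differ in range and ordered by total RNA. Filled points passed an adjusted p of 0.05. *Ptbp1*, *Ewsr1* and *Hnrnpll* were higher in total RNA and lower in TE, and *Rbmx* and *Hnrnpdl* were lower in total RNA and RPF.

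A list of 17 mRNAs and proteins linked to these factors was also read, of which 16 passed the filters and *Slc40a1*, the iron exporter ferroportin, did not. In total RNA, 6 increased and 4 decreased, in RPF 4 and 2, and for TE 0 and 1. These were 62.5%, 37.5% and 6.25% of the genes tested, beside 53.6%, 30.6% and 9.85% of all genes, and nothing particular to the list is read from them. *Ptprc*, the most abundant, decreased in total RNA (log2 -0.375 ± 0.051 SE) and RPF (-0.30 ± 0.06), and gene counts do not show its exons. *Pkm*, whose exon choice is set by PTBP1, hnRNP A1 and hnRNP A2B1, decreased in total RNA (-0.56 ± 0.07) and RPF (-0.45 ± 0.07). *Cd44* increased in total RNA (2.19 ± 0.47) and RPF (2.085 ± 0.345). Its total RNA was 22.1, 27.9 and 28.5 CPM in controls and 83.8, 207.9 and 66.7 CPM in *Rnmt* cKO, with replicate 2 far above the rest. Without that library the total RNA change was 1.54 on the log2 scale, and the total RNA call was lost with no filter on low counts (adjusted p = 0.071, edgeR). Its RPF call was lost without any 1 of the controls (log2 1.96 to 2.17), and both calls were lost without replicate 3 of both genotypes (2.56 and 2.38). The activation markers *Il2ra*, *Cd69* and *Cd44* together summed to 695.5 to 921 CPM in *Rnmt* cKO total RNA and 373 to 440.5 CPM in controls.

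Total RNA of the ferritin light chain gene *Ftl1* decreased (-0.27 ± 0.08 SE), and *Bola2*, a partner in iron-sulphur cluster delivery, decreased as well (-0.34 ± 0.07). *Dohh*, an iron-dependent hydroxylase that receives iron from PCBP1, increased in total RNA (0.435 ± 0.087) and RPF (0.57 ± 0.09). For the ferritin heavy chain gene *Fth1* the log2 changes were 0.565 ± 0.228 for total RNA, -0.14 ± 0.09 for RPF and -0.705 ± 0.273 for TE, none of which passed. *Ncoa4*, the receptor that takes ferritin to autophagy, and *Slc11a2*, an iron transporter, passed in none either, with total RNA changes of 0.04 ± 0.13 and -0.05 ± 0.085. The arginine methyltransferase genes *Prmt1* and *Prmt5*, whose enzymes modify hnRNPs, increased in total RNA (0.38 ± 0.06 and 0.31 ± 0.05), and *Prmt1* was the 1 gene of the list with lower TE (-0.47 ± 0.09). *Prmt5* also increased in RPF (0.22 ± 0.07), as did *Upf1* (0.56 ± 0.09 in total RNA and 0.23 ± 0.06 in RPF). The RPF call of *Upf1* was lost with no filter on low counts (0.20) and without replicate 3 of both genotypes (0.25). *Upf1* and *Smg1* (0.29 ± 0.09 in total RNA) encode nonsense-mediated decay factors, a pathway that acts on many hnRNP and PTB isoforms. *Tnpo1* and *Tnpo2*, which encode the transportins that carry hnRNP A1 into the nucleus, passed in no comparison. Leaving out 1 replicate ended the TE call of *Prmt1* (*Rnmt* cKO replicate 1, -0.41), the RPF call of *Prmt5* (control replicate 2 or 3 or *Rnmt* cKO replicate 1 or 2, 0.17 to 0.21) and the total RNA calls of *Ftl1* (control replicate 1 or *Rnmt* cKO replicate 1 or 2, -0.25 to -0.22) and *Smg1* (control replicate 1 or 2, 0.26 to 0.27). With all libraries kept, the RPF call of *Prmt5* was lost with upper quartile scaling (adjusted p = 0.052, edgeR), no filter (0.11) and the exact test (0.087), and it was also lost without replicate 3 of both genotypes (0.26 on the log2 scale). That of *Ftl1* in total RNA was lost with both strands counted (-0.23 ± 0.22 SE, adjusted p = 0.405, edgeR).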

How the data were processed

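Of 12 libraries, 3 per group, genotype and kind were taken from the labels. By the methods of the study, the authors worked from read 2 alone, because read 1 had failed, trimmed it with Cutadapt, removed ribosomal RNA and tRNA reads with Bowtie, aligned to mm10 with STAR 2.5.2b and GENCODE vM12, and deposited counts of uniquely aligned reads per gene as whole numbers. Of all reads, 41.1 to 47.05% in total RNA and 53.9 to 70.4% in RPF were in the 4 rows that name no gene. The authors also deposited normalized signal values per library, with their own fold changes and p-values, for a subset of genes; the signal values served only to identify the counting strand, and their comparisons were not used. Reverse-strand counts divided by 1 factor per library gave those values within 0.1% for 100% of the genes above 0. Unique counting lowers genes with copies, and lengths, positions and symbols came from GENCODE vM21, in which 49326 of 49585 genes were found. Duplicate reads cannot be told apart, so p-values measure the spread between these libraries, which may be partly technical.

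Genes that exceeded 1 CPM in 3 or more of the 6 libraries of a kind were tested by edgeR 4.0.16 in R 4.3.3 (TMM, quasi-likelihood F test, robust, two-sided, Benjamini-Hochberg, threshold 0.05), within each kind and, for TE, as the interaction of genotype and kind over 12 libraries. RiboDiff, which the authors used for TE, was not used here. The test was also run on simulated data, from which no result is given or used here. Log2 CPM used a prior count of 2. The SE of a log2 value was its size over the square root of the F statistic. Over all genes the median SE was 0.10 for total RNA, 0.13 for RPF and 0.16 for TE. Members and gene lists were chosen with earlier results of these data known. The genes named were the 10 members, *Rnmt*, list genes past the threshold (up to 6 per direction), the most abundant of each list, the 5 most like *Pcbp1*, and copies named after members; *Taf15*, *Fth1*, *Slc40a1*, *Ncoa4*, *Slc11a2*, *Tnpo1* and *Tnpo2* and the seventh decrease, *Hnrnpr*, were added after their values were seen. The counts and medians of the family list cover all 23 genes, of which 1 is not reported here. Total RNA and RPF libraries of the same genotype and number deviated together, with r of 0.17, 0.20 and 0.38 in controls and 0.11, 0.37 and 0.30 in *Rnmt* cKO, and were taken as the same mouse. The main TE fit had no term for the mouse, so its SE and p-values leave this pairing out. With the block by animal, 1289 of 10668 genes were called for TE, beside 1051 in the main fit. Alternatives were library size, upper quartile, DESeq2 1.42.0, the exact test, no filter, at least 10 counts in every library, both strands, each replicate left out, blocks by replicate number and by animal, and replicate 3 of both genotypes left out. Figures used Python 3.11.15 and matplotlib 3.10.9.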

Additional observations from a re-analysis of the deposited data

Results flagged for a closer look

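Reads on the strand opposite to the gene enter a comparison only in the alternative with both strands counted. They were higher in every *Rnmt* cKO library than in every control library for 3 of 20 combinations of gene and kind. By kind they were higher for 2 of 10 in total RNA and 1 of 10 in RPF, where 9.24% and 5.33% of all genes tested were. For *Pcbp1* in total RNA they were 0.212 to 0.377 CPM in controls and 0.516 to 0.747 CPM in *Rnmt* cKO, from 17 and 33 reads in all. As a share of all reads at the gene they were 0.386 to 0.477% in controls and 0.182 to 0.340% in *Rnmt* cKO. For *Hnrnpm* in total RNA they were 0.108 to 0.318 CPM in controls and 0.413 to 0.605 CPM in *Rnmt* cKO, from 13 and 29 reads, and for *Hnrnpl* in RPF 0.0939 to 0.151 and 0.195 to 0.492 CPM, from 3 and 6 reads. They were lower in every *Rnmt* cKO library for 1 combination, *Hnrnpu* in total RNA, at 13.8 to 17 CPM in controls and 8.31 to 10.8 CPM in *Rnmt* cKO, from 886 and 553 reads, where 3.88% of all genes tested were. *Hnrnpu* overlaps the protein-coding gene *Cox20* on the other strand, and whether these reads come from *Cox20* was not tested. Groups of 3 were not searched for single libraries far from the rest.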

How the results depend on the processing

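Over 15 alternatives in each comparison, *Pcbp1*, *Hnrnpl* and *Hnrnpu* kept their direction and their call, with *Pcbp1* TE from -2.92 to -2.27 and a highest adjusted p of 0.0491 (edgeR, replicate block). Members increased in total RNA (3) were 3 to 6 with libraries left out, 5 when control replicate 3 was the one left out and 6 when it was *Rnmt* cKO replicate 3. With both of these left out, an alternative chosen after seeing the data, 6 members increased in total RNA, 6 decreased in TE (3), and their median TE change was -0.86 (-0.43). With libraries left out that median ranged from -0.86 to -0.31, and that of RPF (-0.15) from -0.19 to -0.10. Over all genes, calls in either direction in total RNA were 5668 of 11380 without control replicate 3 and 6253 of 11281 without *Rnmt* cKO replicate 3. Without both they were 6149 of 11070 in total RNA and 1221 of 10299 in TE. The 1 member increased in RPF became 0 with upper quartile, no filter, both strands, the exact test, or without control replicate 2 or 3, *Rnmt* cKO replicate 1, or replicate 3 of both genotypes. Genes increased in TE (346) ranged from 123 to 385 and genes decreased (705) from 435 to 836 with replicates left out, and 202 increased with the replicate block.

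Directions turned for values near 0. Total RNA of *Hnrnpk* (-0.02) was 0.0142 by library size, and ranged from -0.0421 to 0.0038 with libraries left out, that of *Hnrnpc* (-0.05) from -0.1097 to 0.0837 and that of *Hnrnpa1* (-0.14) from -0.2679 to 0.1368. RPF of *Pcbp2* (-0.01) were 0.0168 by library size and 0.003 by DESeq2, and ranged from -0.0509 to 0.0301 with libraries left out, those of *Hnrnpa2b1* (-0.02) from -0.0697 to 0.001. TE of *Hnrnpa1* (-0.30) was 0.0593 at its highest, without control replicate 1. The cause was not tested.

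Control and *Rnmt* cKO libraries share only a number (r of -0.29, -0.22 and -0.52 for total RNA, and 0.15, -0.05 and -0.06 for RPF). The replicate block ended the calls of *Hnrnpll* for TE and of *Ptbp2*, *Pcbp3* and *Smg1* for total RNA. The block by animal changed no call of the genes named. Scaling moved the median gene by at most 0.05. With all libraries kept, total RNA of *Hnrnpd* passed in the exact test, of *Hnrnpm* in DESeq2 and of *Hnrnpa2b1* with no filter. *Hnrnpa1*, limited by its copies, had 17 to 70 reads per RPF library. With 3 libraries per group the smallest exact permutation p for a single gene is 0.1.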
